A study of Mus musculus with 2 samples.

Results

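The genes described here are the 31 ligands of the transforming growth factor β (TGF-β) superfamily other than Gdf5, taken by name from 20807 protein-coding genes on the mouse autosomes. They comprise 9 bone morphogenetic proteins (Bmp2, Bmp3, Bmp4, Bmp5, Bmp6, Bmp7, Bmp8a, Bmp8b and Bmp10), 9 growth and differentiation factors (Gdf1, Gdf2, Gdf3, Gdf6, Gdf7, Gdf9, Gdf10, Gdf11 and Gdf15), 5 activin and inhibin subunits (Inha, Inhba, Inhbb, Inhbc and Inhbe), the 3 TGF-β isoforms (Tgfb1, Tgfb2 and Tgfb3) and 5 further ligands (Amh, Mstn, Lefty1, Lefty2 and Nodal). Open chromatin had been profiled by ATAC-seq, in which a transposase inserts sequencing adapters into accessible DNA. The tissue was cartilage dissected from the proximal and from the distal end of the femur of FVBNJ mouse embryos at E15.5. According to the paper it included the overlying perichondrium, so the peaks are not of chondrocytes alone. No treatment or mutation was involved. The ends of left and right femurs were pooled, separately for each end, from a litter of 8 animals on average, so the 2 ends are not from independent sets of animals where they share a litter. Each end had a single list of peaks, which combined 2 biological replicates by their irreproducible discovery rate (IDR, under 0.05). The proximal femur list held 28257 peaks and the distal femur list 27958. The lists give positions only, so the values below carry no replicate error, and no test between the femur ends was possible. A region called in 1 list only may still have been accessible, below the threshold, at the other end. Because whole tissue pieces were profiled, fewer cells of a type with an open site and less openness per cell cannot be told apart.

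Most TGF-β superfamily ligands are secreted dimers that bind pairs of type I and type II receptor kinases and act through Smad proteins. BMP ligands mostly use Smads 1, 5 and 9, whereas TGF-β and activin ligands mostly use Smads 2 and 3. In the growth plate, BMP signaling drives cartilage condensation and chondrocyte proliferation, and TGF-β signaling restrains hypertrophy. Other members act far from cartilage, in the early embryo, the gonads, muscle or the liver.

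Peaks of the 2 lists that overlapped by at least 1 bp were merged into regions, of which there were 32388 in all. Every region inside a ligand gene or within 100 kb of it was assigned to that ligand, which gave 171 distinct regions. A region within 1 kb of an annotated start site of the ligand is called a promoter peak below, and a region over 1 kb from every annotated start site of any gene is described as away from start sites. Distances are from the nearest edge of a region to the nearest annotated start site of the ligand, unless a centre is named. Of the 171 regions, 94 lay at a start site of some gene and 77 lay away from start sites. The windows of Bmp8a and Bmp8b shared 2 regions, those of Gdf2 and Gdf10 shared 2, those of Lefty1 and Lefty2 shared 5 and those of Inhbc and Inhbe shared 6, and such regions were counted once in totals. As a check of the tissue, 10 of 11 chondrocyte marker genes had a promoter peak, including Sox9, Col2a1 and Acan, against 0 of 5 autosomal osteoblast, 0 of 6 skeletal muscle, 0 of 6 blood, 2 of 5 endothelial and 2 of 5 epithelial markers and 59.1% of all genes. Of the 11 chondrocyte markers, 4 (Col9a2, Col11a2, Comp and Snorc) had their promoter peak in the distal femur only and 0 in the proximal femur only. The corresponding shares of all autosomal protein-coding genes were 2.77% and 1.37%. The part of this difference in the results on single femur ends was not tested. Markers of perichondrium were not examined.

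**Figure D1:**
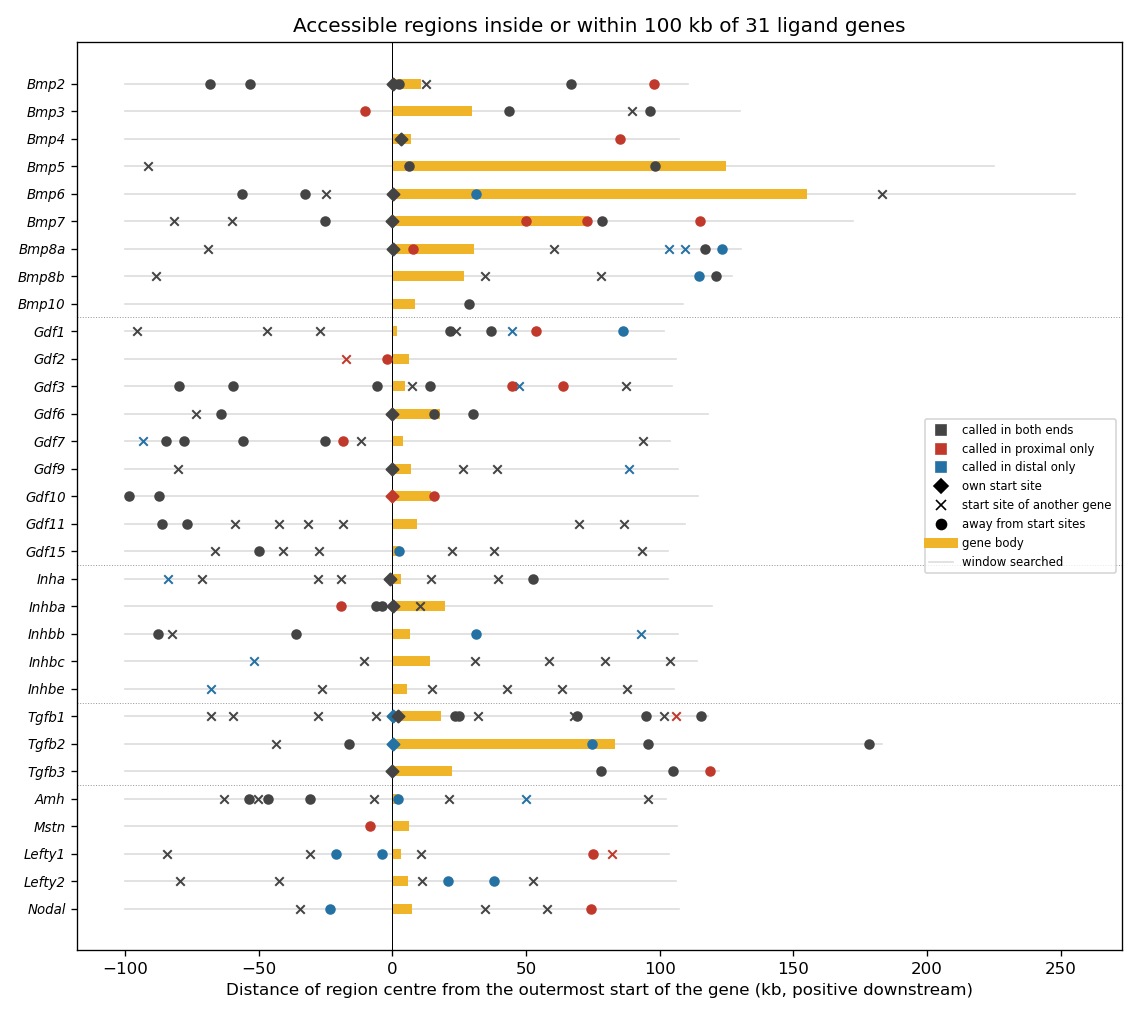
Positions of all regions assigned to each of the 31 ligands, as the distance of the region centre from the outermost start of the gene (x axis, kb, positive downstream), with 1 ligand per row and dotted lines between subfamilies. Colours give the lists in which a region was called, symbols give its kind, the orange bar is the gene and the grey line the window searched. Bmp10 and Mstn had a single region each, whereas Tgfb1 had 15.

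The sequences below show loci where the 2 lists differed, a CG-rich start without a peak, and the widest shared regions away from start sites of 2 ligands. First, the 250 bases upstream of the start are shown for Gdf10, whose promoter peak was called in the proximal femur only, for Tgfb2, whose promoter peak was called in the distal femur only, for Tgfb1, whose outermost start lay in a peak of the distal femur only, and for Gdf11, which had no promoter peak. Capitals mark CG dinucleotides. They are RefSeq promoter sequences of GRCm38, the assembly that mm10 denotes, and belong to the reference strain.
Gdf10 upstream, chr14:33923337-33923586, plus strand: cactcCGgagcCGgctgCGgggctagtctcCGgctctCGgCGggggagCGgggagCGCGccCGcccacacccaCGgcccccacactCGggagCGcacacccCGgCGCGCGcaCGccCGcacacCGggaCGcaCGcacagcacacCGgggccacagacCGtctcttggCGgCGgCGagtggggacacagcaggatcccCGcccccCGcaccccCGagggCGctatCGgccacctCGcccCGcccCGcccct
Gdf11 upstream, chr10:128891719-128891968, minus strand: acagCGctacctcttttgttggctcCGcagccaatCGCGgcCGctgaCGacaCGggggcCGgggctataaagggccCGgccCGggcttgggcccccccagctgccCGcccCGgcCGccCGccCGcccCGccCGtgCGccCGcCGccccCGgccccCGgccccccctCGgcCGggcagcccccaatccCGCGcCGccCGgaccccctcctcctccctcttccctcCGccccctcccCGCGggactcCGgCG
Tgfb1 upstream, chr7:25686752-25687001, plus strand: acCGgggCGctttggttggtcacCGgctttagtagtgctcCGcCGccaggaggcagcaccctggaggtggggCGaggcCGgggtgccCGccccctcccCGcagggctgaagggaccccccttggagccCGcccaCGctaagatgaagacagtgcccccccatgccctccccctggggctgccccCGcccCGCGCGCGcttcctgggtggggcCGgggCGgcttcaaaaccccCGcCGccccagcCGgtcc
Tgfb2 upstream, chr1:186705990-186706239, minus strand: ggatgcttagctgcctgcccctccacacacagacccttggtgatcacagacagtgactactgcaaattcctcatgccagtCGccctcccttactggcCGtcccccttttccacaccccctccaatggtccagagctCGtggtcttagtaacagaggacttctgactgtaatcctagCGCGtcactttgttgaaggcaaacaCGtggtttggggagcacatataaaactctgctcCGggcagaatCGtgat
The Gdf10 stretch held 35 CG dinucleotides, that of Gdf11 33, that of Tgfb1 21 and that of Tgfb2 8. The Gdf10 and Gdf11 stretches were thus similar in this respect, although only the former lay in a peak.

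The central 200 bases of 8 regions away from start sites are shown next, and capitals mark matches to the motifs searched, on either strand. The motifs were TGACTCA, which AP-1 factors bind, AACCACA, which contains the core bound by RUNX factors, CCATTGT, which SOX factors bind, and the CTCF consensus. The first 6 regions were called in 1 femur end only (Bmp4, Inhba, the region between Gdf10 and Gdf2, and Mstn in the proximal femur, Inhbb and Lefty1 in the distal femur), and the last 2 were the widest shared regions away from start sites of Bmp2 and Bmp7. All 8 lay outside annotated protein-coding genes, and their letters are those of the GRCm38 assembly.
Bmp4, chr14:46305539-46305738, plus strand: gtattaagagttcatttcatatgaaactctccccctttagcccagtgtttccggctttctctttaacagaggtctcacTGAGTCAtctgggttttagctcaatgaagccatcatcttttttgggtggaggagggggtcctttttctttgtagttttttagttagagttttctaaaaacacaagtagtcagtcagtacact
Inhba, chr13:15992430-15992629, plus strand: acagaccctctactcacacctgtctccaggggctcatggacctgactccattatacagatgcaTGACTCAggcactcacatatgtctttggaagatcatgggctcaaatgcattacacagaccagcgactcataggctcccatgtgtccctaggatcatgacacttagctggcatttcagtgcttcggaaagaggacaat
Gdf2 and Gdf10, chr14:33939093-33939292, plus strand: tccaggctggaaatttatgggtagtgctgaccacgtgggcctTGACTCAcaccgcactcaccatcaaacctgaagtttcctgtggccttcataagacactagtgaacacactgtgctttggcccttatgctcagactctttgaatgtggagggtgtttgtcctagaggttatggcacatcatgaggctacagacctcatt
Mstn, chr1:53053140-53053339, plus strand: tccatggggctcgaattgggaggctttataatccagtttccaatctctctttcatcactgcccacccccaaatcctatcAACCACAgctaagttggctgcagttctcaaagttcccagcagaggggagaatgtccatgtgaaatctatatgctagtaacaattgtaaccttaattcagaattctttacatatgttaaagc
Inhbb, chr1:119390899-119391098, plus strand: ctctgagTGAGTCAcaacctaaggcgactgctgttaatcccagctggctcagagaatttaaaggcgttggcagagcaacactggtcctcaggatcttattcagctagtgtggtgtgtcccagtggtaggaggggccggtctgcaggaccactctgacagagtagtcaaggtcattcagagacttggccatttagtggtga
Lefty1 and Lefty2, chr1:180931237-180931436, plus strand: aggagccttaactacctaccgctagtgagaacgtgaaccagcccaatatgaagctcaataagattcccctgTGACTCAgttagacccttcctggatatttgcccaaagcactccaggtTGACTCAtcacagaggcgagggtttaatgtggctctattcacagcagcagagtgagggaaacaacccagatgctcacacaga
Bmp2, chr2:133498683-133498882, plus strand: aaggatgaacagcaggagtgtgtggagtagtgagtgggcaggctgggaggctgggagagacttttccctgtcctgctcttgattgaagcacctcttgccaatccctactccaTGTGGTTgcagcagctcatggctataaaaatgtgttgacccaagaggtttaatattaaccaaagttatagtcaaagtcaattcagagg
Bmp7, chr2:172965355-172965554, plus strand: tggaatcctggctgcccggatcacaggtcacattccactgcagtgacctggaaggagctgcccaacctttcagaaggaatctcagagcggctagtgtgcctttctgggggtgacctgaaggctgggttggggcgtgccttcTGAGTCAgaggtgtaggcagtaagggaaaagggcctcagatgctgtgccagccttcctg
The Lefty1 sequence held 2 AP-1 matches, and those of Bmp4, Inhba, Gdf2, Inhbb and Bmp7 held 1 each. The Mstn and Bmp2 sequences held 1 RUNX match each. The regions of 1 femur end shown here were chosen after the values were seen, and the shares over all regions are given below.

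Intervals in parentheses are 95% confidence intervals by the Wilson method, reflect only counting error, and treat genes and regions as independent although some ligands share regions. A promoter peak was found for 13 of 31 ligands, or 41.9% (26.4% to 59.2%), against 59.1% of all autosomal protein-coding genes. The promoter peak was called in both femur ends for 11 ligands, or 35.5% (21.1% to 53.1%), compared with 55.0% of all genes. It was called in the proximal femur only for 1 ligand, Gdf10, and in the distal femur only for 1 ligand, Tgfb2. The corresponding shares of all genes were 1.37% and 2.77%. By subfamily, a promoter peak was present at 3 of 3 TGF-β isoforms, 5 of 9 BMPs, 2 of 5 activin and inhibin subunits, 3 of 9 GDFs and 0 of the 5 further ligands. With so few genes per subfamily these counts are a description, and no test between subfamilies was made.

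**Figure D2:**
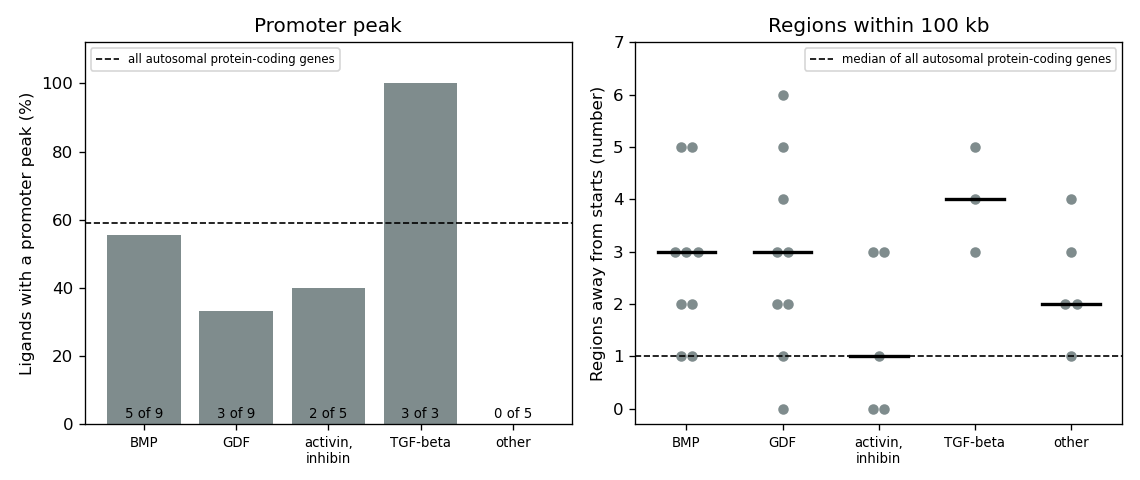
Left, the percentage of ligands in each subfamily with a promoter peak in either femur end (bars, with counts), and the 59.1% of all autosomal protein-coding genes as a dashed line. Right, the number of regions away from start sites for each ligand (points), with the median of the subfamily (bar) and the median of 1 over all autosomal protein-coding genes (dashed line); TGF-β isoforms had a median of 4 and activin and inhibin subunits a median of 1.

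The BMPs with a promoter peak were Bmp2, Bmp4, Bmp6, Bmp7 and Bmp8a, all in both lists. At Bmp2, which promotes chondrocyte proliferation and maturation, the peak covered the start and ran over 1205 bp in the proximal femur (chr2:133551976-133553180) and over 1166 bp in the distal femur (chr2:133552000-133553165). The 2 peaks overlapped by 1166 bp, or 96.8% of the merged region. Bmp7, another ligand expressed in limb cartilage, had peaks of 851 and 830 bp at its start that overlapped over 94.3% of the merged region. At Bmp6, a ligand associated with maturing chondrocytes, the widths were 723 bp in the proximal femur and 879 bp in the distal femur. The Bmp8a peaks were offset, with 1197 bp in the proximal femur, 1116 bp in the distal femur and an overlap of 865 bp, or 59.7%, the smallest among the 11 ligands. The gene lies on the minus strand, and the distal femur peak reached farther upstream of the start.

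Bmp4 differed from the other BMPs in where its peak lay. The region, of 490 bp in the proximal femur and 586 bp in the distal femur, was inside the gene over an annotated untranslated exon, with its centre 3218 bp downstream of the outermost of 4 annotated start sites, and it also held an annotated start of Gm15222. No peak lay within 1 kb of that outermost start. The Bmp4 peak was also the narrowest among those ligands whose promoter was called in both ends. No promoter peak was found for Bmp3, which can oppose other BMPs, for Bmp5, the gene mutated in short ear mice, for Bmp8b, a germ cell ligand, or for Bmp10, a heart ligand. Their nearest regions lay 9830 bp, 6055 bp, 20016 bp and 28080 bp from a start site of the gene.

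Among the GDFs, Gdf6 and Gdf9 had a promoter peak in both lists. Gdf6, which acts in joint formation, had peaks of 607 bp in the proximal femur and 743 bp in the distal femur, centred 8 bp upstream of the start after merging. The Gdf9 region, of 1012 and 1165 bp, was also within 1 kb of a start site of Uqcrq, so that a ligand known from oocytes shared its promoter peak with a mitochondrial respiratory gene. Gdf10, a relative of Bmp3, had a peak of 996 bp over its start (chr14:33923108-33924103) in the proximal list, and the nearest distal femur peak was 86440 bp away. Gdf1, Gdf2, Gdf3, Gdf7, Gdf11 and Gdf15 had none. The nearest region to a start was 1495 bp away at Gdf2, 1519 bp at Gdf15, 5629 bp at Gdf3, 11150 bp at Gdf7, 17538 bp at Gdf11 and 21253 bp at Gdf1.

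Of the activin and inhibin subunits, Inhba, which encodes the subunit of activin A, had a promoter peak of 825 bp in the proximal femur and 833 bp in the distal femur, and the overlap of 97.6% was the largest among the 11 ligands. The region counted for Inha, the inhibin α subunit, ended 211 bp short of the Inha start and covered a start site of Obsl1 on its other side, so it cannot be assigned to either gene alone. Inhbb, the subunit of activin B, and Inhbc and Inhbe, subunits known from the liver, had no promoter peak. The nearest regions were 30977 bp, 9724 bp and 14210 bp from their start sites.

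All 3 TGF-β isoforms had a promoter peak, but in different lists. Tgfb3 had a shared peak of 1183 bp in the proximal femur and 908 bp in the distal femur, which also held an annotated start of Gm48008. At Tgfb2, a peak of 1023 bp covered the outermost start in the distal femur (chr1:186705200-186706222), where Gm29491 also has an annotated start, and the nearest proximal femur peak was 15729 bp away. Tgfb1 had 2 promoter regions. The region over its outermost start, 860 bp in width (chr7:25686681-25687540), was called in the distal femur only, with the nearest proximal femur peak 1353 bp away. The other, centred 2264 bp downstream over further annotated start sites, was shared, with widths of 720 bp in the proximal femur and 864 bp in the distal femur. When only the outermost start of each gene was used, Tgfb1 therefore joined Tgfb2 as called in the distal femur only.

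**Figure D3:**
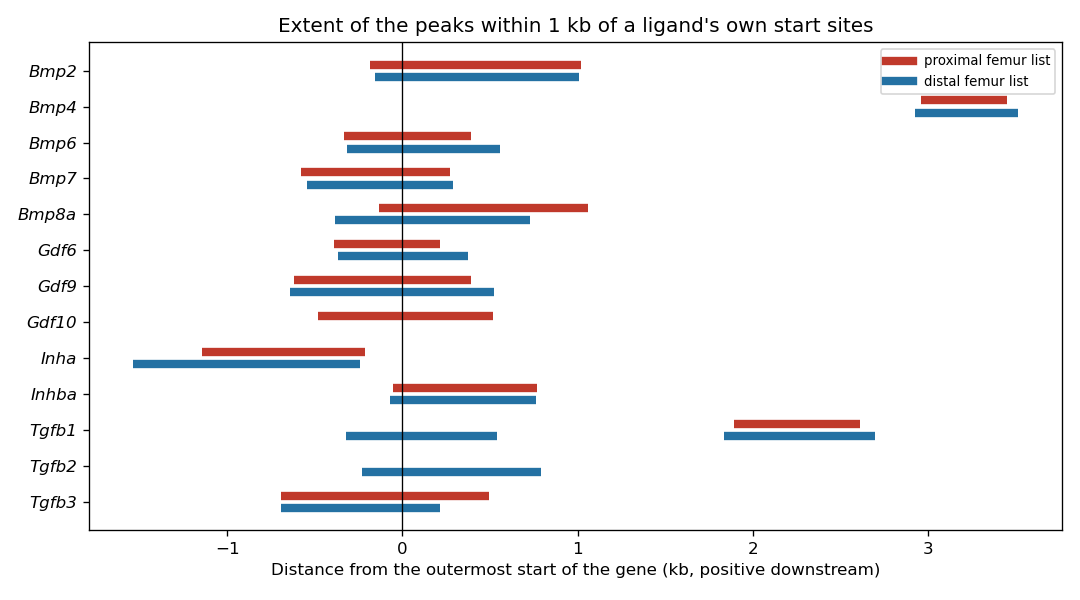
Extent of each peak within 1 kb of a start site of its ligand, for the 13 ligands with such a peak, as the distance from the outermost start of the gene (x axis, kb, positive downstream), with proximal femur peaks in red and distal femur peaks in blue. Gdf10 has a proximal femur peak only, Tgfb2 a distal femur peak only, and the peak of Tgfb1 at 0 kb is from the distal femur only.

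Of the further ligands, none had a promoter peak. They are Amh, which drives regression of the Müllerian duct, Mstn, which limits muscle growth, and Nodal, Lefty1 and Lefty2, which set the left-right axis of the early embryo. Their nearest regions lay between 1807 bp (Amh) and 23060 bp (Nodal) from a start site.

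Base composition at the starts was read from the assembly, from 250 bp before to 50 bp after the outermost start. The ratio of observed to expected CG dinucleotides had a median of 0.686 (range 0.195 to 0.962) for the 13 ligands with a promoter peak and of 0.282 (range 0.0418 to 0.833) for the 18 without. Across all autosomal protein-coding genes the medians were 0.742 and 0.202. A ratio of 0.6 or more was reached by 7 of the 13 ligands (53.8%) and by 68.6% of all genes with a promoter peak. It was also reached by 4 of the 18 ligands without one (22.2%), against 12.2% of all such genes. These 4 were Gdf11 (0.833), Gdf7 (0.766), Inhbb (0.741) and Bmp8b (0.702). In the other direction, Inha (0.195), Bmp4 (0.419), Inhba (0.426) and Tgfb2 (0.458) had the lowest ratios among ligands with a promoter peak. The ratio is that of the outermost start, whereas a promoter peak could lie at any start of a gene, for ligands and for all genes. Bmp4 had no peak within 1 kb of its outermost start, and the peak counted for Inha did not cover the Inha start.

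**Figure D4:**
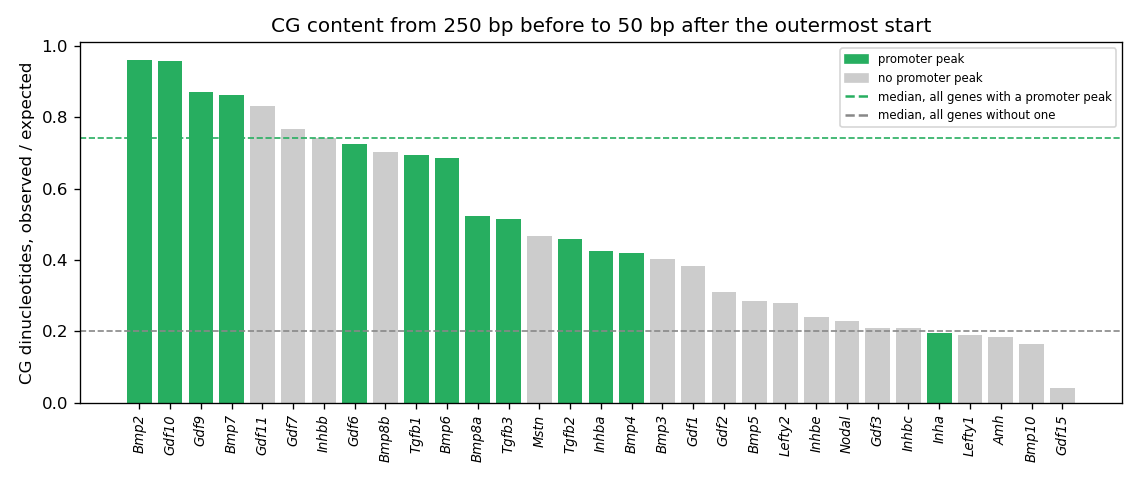
Observed over expected CG dinucleotides around the outermost start of each ligand (y axis), sorted from high to low, with ligands that had a promoter peak in green and the others in grey. Dashed lines are the medians over all autosomal protein-coding genes with (0.742) and without (0.202) a promoter peak; Gdf11, Gdf7, Inhbb and Bmp8b are the grey bars above 0.6.

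No ligand was without a peak, since all 31 had at least 1 region inside the gene or within 100 kb, as did 91.3% of all autosomal protein-coding genes. For Bmp10 this was a single region of repetitive sequence, described below. The number of regions per ligand ranged from 1 to 15 with a median of 6, against a median of 5 over all genes. At least 1 region away from start sites was found for 28 of 31 ligands (90.3%, 75.1% to 96.7%) and for 72.7% of all genes. The 3 ligands with none were Gdf9, Inhbc and Inhbe, whose windows each held 10 other protein-coding genes. Inhbc and Inhbe shared all their regions. More crowded windows did hold regions away from start sites. Amh had 4 (13 other genes), Tgfb1 5 (11), and Gdf11 and Gdf15 2 each (11). The gene body itself held a region at 15 of 31 ligands (48.4%, 32.0% to 65.2%), against 63.4% of all autosomal protein-coding genes, so 16 ligands had none inside the gene.

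The median number of regions away from start sites was 3 per ligand (range 0 to 6), against 1 over all genes. It was 4 for TGF-β isoforms, 3 for BMPs, 3 for GDFs, 2 for the further ligands and 1 for activin and inhibin subunits. The subfamilies also differed in the number of neighbouring genes, with a median of 2 other protein-coding genes in the windows of BMPs and of TGF-β isoforms, 5 for GDFs and for the further ligands, and 8 for activin and inhibin subunits. Counted as distinct regions, there were 23 near BMPs, 25 near GDFs, 7 near activin and inhibin subunits, 12 near TGF-β isoforms and 10 near the further ligands.

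How many of these regions had a start site of the ligand as their nearest protein-coding start differed widely. Nearest refers here to start sites, so a region may still lie inside another gene. Gdf3, a ligand of the early embryo, had the largest number with 6 regions, of which 1 was nearest to Gdf3. The central 200 bases of the latter were a run of the repeated unit CTGACT, and whether reads could be placed uniquely there was not tested. All 5 regions of Gdf7, known from tendon and the dorsal spinal cord, lay upstream, and for 0 of them was the Gdf7 start the nearest. The same held for the 5 regions of Tgfb1, all downstream of the gene in a window with 11 other protein-coding genes. At Bmp2, by contrast, all 5 regions were nearest to the ligand, and its window held no other protein-coding gene. Bmp7 had 5 regions, of which 4 were nearest to it. The 4 regions of Tgfb2 were all nearest to its start, although 1 of them lay inside Rrp15. Amh and Gdf1 also had 4 regions each, of which 1 and 0 were nearest to the ligand. Over all ligands, 36 of the 77 distinct regions were nearest to the ligand, 17 of them at BMPs. Per gene, the median number of such regions was 1 for the ligands (quartiles 0 and 2). Over all autosomal protein-coding genes it was 0 (quartiles 0 and 1).

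**Figure D5:**
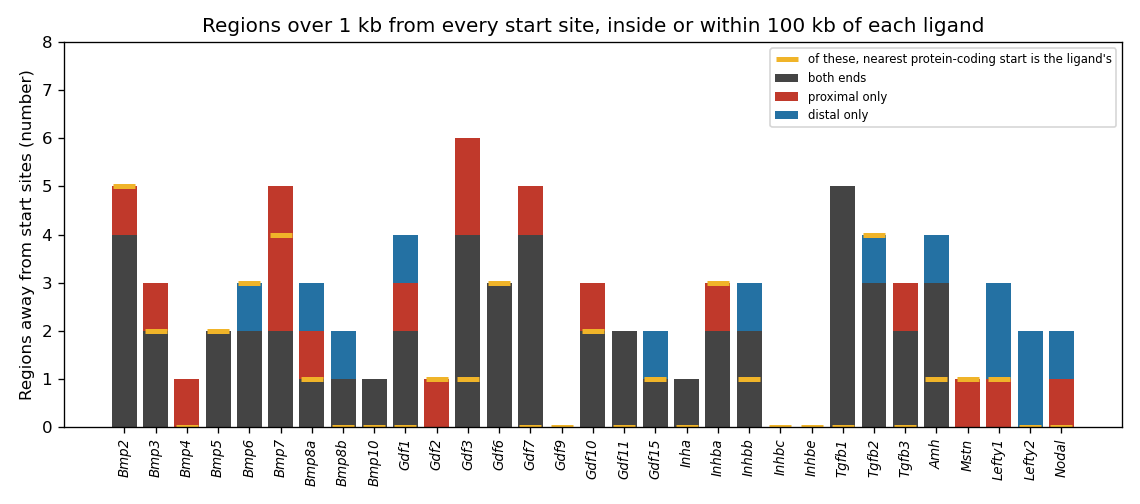
Number of regions over 1 kb from every start site, inside or within 100 kb of each ligand (y axis), stacked by the lists in which they were called. The orange mark gives how many of them had the ligand as the nearest protein-coding start: 5 of 5 at Bmp2, 1 of 6 at Gdf3 and 0 of 5 at Gdf7 and Tgfb1.

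The regions around Bmp2 lay on both sides of the gene. Upstream, shared regions lay 67748 bp (702 bp wide) and 52783 bp (1186 bp wide, chr2:133498191-133499376) from the start. A shared region of 926 bp overlapped a coding exon 2064 bp downstream of the start. Beyond the gene, a shared region of 423 bp lay 66775 bp from the start, and a region of 535 bp called in the proximal femur only lay 97755 bp from it, 30598 bp from the nearest distal femur peak. Thus 4 of 5 were shared.

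Gdf6 and Bmp5, whose regulatory domains are known from mouse genetics to be large, had shared regions only. At Gdf6 these lay 63496 bp upstream (782 bp), over a coding exon 15036 bp downstream of the start (896 bp) and 29863 bp downstream of the start beyond the gene (948 bp, chr4:9874235-9875182). Both Bmp5 regions were inside the gene, 1 in an intron 6055 bp from the outermost start (686 bp) and 1 over a coding exon (805 bp) with its centre 98272 bp from that start. The Bmp6 regions upstream of the gene, 1030 and 1044 bp wide and 55730 and 31968 bp from the start, were shared, and an intronic region of 372 bp was called in the distal femur only. Inhba had its 3 regions upstream, at 3685 bp (526 bp, shared), 5996 bp (291 bp, shared) and 19042 bp (558 bp, proximal femur only) from the start.

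Other ligands had few regions. Bmp10 had 1, a shared region of 1039 bp located 28080 bp downstream and nearest to Arhgap25. The central 200 bases of this region were a tandem repeat, and whether reads could be placed uniquely there was not tested. Mstn had 1, of 294 bp, located 8253 bp upstream and called in the proximal femur only, with the nearest distal femur peak 99734 bp away. Bmp4 had 1 away from start sites, of 636 bp, also in the proximal femur only. Those 3 windows held 5, 2 and 1 other protein-coding genes.

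Of the 77 regions away from start sites, 50 were shared (64.9%, 53.8% to 74.7%), 17 were called in the proximal femur only (22.1%, 14.3% to 32.5%) and 10 in the distal femur only (13%, 7.21% to 22.3%). Over all 18614 regions away from start sites the shares were 62.0%, 20.9% and 17.1%, each within the interval of the ligands. At least 1 proximal-only region away from start sites was present at 15 of 31 ligands (48.4%, 32.0% to 65.2%), against 28.7% of all autosomal protein-coding genes. At least 1 distal-only region was present at 11 of 31 (35.5%, 21.1% to 53.1%), against 28.8%. The ligands also had more regions away from start sites per gene, as given above, and the part of that difference in these shares was not tested.

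At start sites, of the ligands or of their neighbours, 79 of 94 regions were shared (84.0%, 75.3% to 90.1%), 3 were called in the proximal femur only (3.19%, 1.09% to 8.97%) and 12 in the distal femur only (12.8%, 7.46% to 21.0%). Over all 13774 regions at start sites the shares were 87.8%, 4.85% and 7.34%. The last lay just below the interval of the ligand windows, and the others lay within theirs. Of these distal-only regions, those at Tgfb1 and Tgfb2 lay at a start of the ligand, and the others at starts of neighbouring genes. Including both kinds, 42 of 171 regions were called in 1 end only (24.6%, 18.7% to 31.5%), against 27% of all merged regions. None of the 42 lay within 500 bp of a peak of the other end. The median distance to such a peak was 21842 bp for the 20 proximal-only regions (range 2186 to 102174 bp) and 13459 bp for the 22 distal-only regions (range 1353 to 66673 bp). Regions away from start sites that were called in 1 end only were narrower, with medians of 525 bp in the proximal femur and 502 bp in the distal femur against 694 bp for shared ones. The same order was seen over all regions away from start sites (504, 473 and 672 bp).

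More than 1 proximal-only region, at the ligand's own start or away from start sites, was found at Gdf10, Bmp7 and Gdf3. The promoter region of Gdf10 was followed, 15255 bp downstream of its start, by a region of 703 bp (chr14:33938842-33939544) that ended 1495 bp upstream of Gdf2, a circulating ligand made in the liver. Both were called in the proximal femur only, and the nearest distal femur peaks were 86440 and 102174 bp away. Gdf2 thus had 2 proximal femur peaks and 0 distal femur peaks in its window, and Gdf10 had 4 and 3. The more remote regions of Gdf10, 86907 and 97988 bp upstream, were shared. At Bmp7, 3 of 5 regions away from start sites were called in the proximal femur only, with widths of 550 bp in an intron, 611 bp just beyond the 3′ end of the gene and 349 bp farther downstream. They lay 27780, 5099 and 36002 bp from the nearest distal femur peak. The other 2 were shared, of 615 bp downstream and of 735 bp upstream of the gene, and the latter was nearest to Spo11.

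More than 1 such distal-only region was found at Tgfb2, Lefty1 and Lefty2. At Tgfb2, besides the promoter, an intronic region of 948 bp (chr1:186630915-186631862) was called in the distal femur only, 20455 bp from the nearest proximal femur peak, while 3 further regions, between 434 and 569 bp wide, were shared. The window of Tgfb2 accordingly held 4 proximal and 6 distal femur peaks. Lefty1 and Lefty2 lie next to each other, and 2 distal-only regions between them, of 400 and 460 bp, counted for both. Lefty1 had in addition a proximal-only region of 343 bp inside Ephx1, and 0 regions away from start sites were shared at either gene. Nodal had 1 proximal-only region (342 bp) and 1 distal-only region (599 bp) and likewise no shared one. Distal-only regions over coding exons were found inside the short genes Gdf15 (1002 bp, centred 2381 bp from the outermost start) and Amh (631 bp, centred 2122 bp from the start), where the GC content was 60.7% and 70.7%.

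The remaining regions called in 1 end only away from start sites were as follows. In the proximal femur they lay near Bmp3 (460 bp, 9830 bp upstream), Bmp8a (752 bp, in an intron), Tgfb3 (557 bp, inside Ttll5), Gdf7 (394 bp, inside Hs1bp3), Gdf1 (284 bp, inside Crtc1) and Gdf3 (474 and 525 bp). In the distal femur they lay near Inhbb (544 bp, 30977 bp downstream of the start), Gdf1 (445 bp, inside Crtc1) and the Bmp8 genes (316 bp, nearest to Heyl). At Bmp5, Bmp10, Gdf6, Gdf11, Inha and Tgfb1, all regions away from start sites were shared.

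Motif matches in the 200 bp around region centres were counted for the 77 regions. The AP-1 motif was found in 30 (39.0%), against 30.4% of all 18614 regions away from start sites. It was found in 18 of 50 shared regions (36.0%, against 30.7%), in 8 of 17 proximal-only regions (47.1%, against 34.7%) and in 4 of 10 distal-only regions (40.0%, against 24.2%). The RUNX motif was found in 4 regions (5.19%, against 6.49%), at Mstn, Bmp2, Bmp7 and Tgfb2. The CTCF consensus was found in 3 (3.90%, against 4.15%), and the SOX motif in 1 (1.30%, against 1.33%), downstream of Tgfb1. No intervals were computed for these shares, which rest on few regions, and their differences from the shares over all regions were not tested. A match describes the letters only, and whether a factor bound there was not tested. The median GC content was 51.0% for shared, 51.1% for proximal-only and 52.3% for distal-only regions at the ligands, compared with 47.4%, 45.9% and 48.2% over all regions away from start sites.

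Other genes of the pathway were examined by the same rules. A promoter peak was found for 11 of 14 receptors, all in both lists, for 8 of 8 Smads, all in both lists, and for 11 of 15 secreted antagonists and related proteins, against 59.1% of all autosomal protein-coding genes in either list and 55.0% in both. The receptors without one were Acvrl1 and Eng, which act in endothelium, and Amhr2, the receptor of Amh. Of the antagonists, 7 had the promoter peak in both lists, 2 in the proximal femur only (Fst, which binds activins, and Sostdc1) and 2 in the distal femur only (Chrdl2 and Dand5), against 1.37% and 2.77% of all genes for the single ends. Nog, Cer1, Sost and Nbl1 had none. The median number of regions away from start sites was 3 for receptors (range 0 to 15), 3.50 for Smads (range 3 to 11) and 2 for antagonists (range 0 to 7), against 3 for the ligands.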

How the data were processed

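ATAC-seq peak lists of 2 samples were used, the proximal and the distal femoral growth plate at E15.5, each from 50000 cells. Reads had been aligned by the authors to the mm10 build using Bowtie2 (2.2.8 in the submitters' processing notes). They removed duplicate reads, called peaks with MACS2 (2.1.1 in those notes) and kept peaks with an IDR under 0.05 between 2 biological replicates. The deposited values are start and end positions in bp, in lists that combine the replicates, without height, score or p-value. Read depth was not analysed here, and a stricter score threshold could not be set. Starts were read as 0-based and are given 1-based.

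Positions were compared with GENCODE mouse release 21 and the GRCm38 assembly in Python 3.11.15 with NumPy 2.4.6, SciPy 1.17.1 and pysam 0.24.0, and plots were drawn with matplotlib 3.10.9. All 31 ligands matched by symbol. A promoter peak had an edge within 1 kb of any annotated start site of the gene, and shared regions overlapped by 1 bp. Both lists covered 19 autosomes, and 0 peaks lay on X or Y. Alternatives were windows of 50 and 200 kb, and promoters within 3 kb, covering the start or at the outermost start only. Regions were also assigned by the nearest protein-coding start. Further alternatives were a 50% reciprocal overlap, gaps up to 500 bp counted as shared, and peaks at least as wide as the list median. Counting was tested on simulated data. The ligands, subfamilies, motifs and pathway lists were chosen with earlier results of these data known. All ligands are named. Those with the most regions (top 6 with ties), those with a region in 1 end only and those without a peak were to be described in full. The threshold of 0.6 for the CG ratio, and the other sequences and regions shown, were chosen after the values were seen. RefSeq promoter sequences matched 21 ligands, and those of Bmp2, Bmp3, Bmp7, Gdf3, Gdf6, Gdf9, Tgfb3, Amh, Lefty1 and Lefty2 are not shown.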

Additional observations from a re-analysis of the deposited data

How the results depend on the processing

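No paired analysis was possible because each list combines the replicates of its femur end, and no replicate could be left out for the same reason. The 13 ligands with a promoter peak stayed within 1.5 times under all 4 alternatives. By subfamily, within 3 kb of a start the GDFs had 5 and the further ligands 1, by the addition of Gdf2, Gdf15 and Amh, and 1 activin or inhibin subunit had its start covered by a peak. With the outermost start only, Bmp4 lost its promoter peak. Among wide peaks only, at or above the list median, Bmp4 had none and Gdf6 was called in the distal femur only.

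Counts of regions follow the window by construction. Regions away from start sites numbered 44 within 50 kb and 147 within 200 kb, with 14 and 41 for BMPs, 12 and 49 for GDFs and 5 and 21 for TGF-β isoforms, and within 200 kb 16 for activin and inhibin subunits and 20 for the further ligands. Those nearest to the ligand numbered 36, with 8 for GDFs, 4 for activin and inhibin subunits, 4 for TGF-β isoforms and 3 for the further ligands. Among wide peaks only there were 25, with 10 for BMPs, 8 for GDFs, 1 for activin and inhibin subunits, 5 for TGF-β isoforms and 1 for the further ligands. By the nearest protein-coding start, 9 ligands had no peak (Bmp8b, Bmp10, Gdf1, Gdf7, Gdf11, Inhbc, Inhbe, Lefty2 and Nodal). Among wide peaks 2 had none (Bmp4 and Mstn). The shares of all genes without a peak under these rules were not computed, so these counts are not a lack particular to the ligands. Regions called in 1 end only numbered 24 within 50 kb (11 proximal, 13 distal), 73 within 200 kb (33 and 40) and 22 among wide peaks (9 and 13). The other 38 values obtained under alternatives stayed within 1.5 times the value reported.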
